A study of Mus musculus with 27 samples.

Results

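The circadian clock was followed through 10 of its genes in single muscle fibers of mice that lack or keep Smn1. The members were Arntl, Clock, Per1, Per2, Per3, Cry1, Cry2, Nr1d1, Nr1d2 and Dbp, taken as every non-control probe of the array that carries one of these symbols as its gene name, which gave 14 probes among 35527 gene names on the array. Levels were measured in 27 myofibers of tibialis anterior, a fast muscle of the lower leg, each amplified and hybridized on its own array. The WT group held 8 myofibers of 2 wild type mice, the Smn1deltaSKM group 12 myofibers of 3 mice with Smn1 deleted in skeletal muscle, and the Smn1deltaSKM+AFS group 7 myofibers of 2 such mice that had also received amniotic fluid stem (AFS) cells. All mice were males, labelled as 3 months old.

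The clock is a loop of transcription that runs in nearly every cell, muscle included, with a period of about a day. ARNTL (also called BMAL1) and CLOCK bind E-boxes together and switch on the Per, Cry, Nr1d and Dbp genes, the PER and CRY proteins then block ARNTL and CLOCK, and the NR1D proteins (REV-ERBs) repress Arntl. In mouse tissues Dbp and Arntl messages peak at nearly opposite times of day, so their levels depend on the hour at which a tissue is taken. The hour at which each mouse was killed is not given in the sources used here.

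The deletion is driven by Cre under the human skeletal actin promoter and acts on a floxed Smn exon, so it is present in every Smn1deltaSKM and Smn1deltaSKM+AFS mouse and is aimed at muscle fibers only. The AFS cells were sorted for GFP and c-kit and injected in a tail vein. The study's methods place the injection at the age that the labels give to the mice, and the killing a month after it. By this account the treated mice were older when killed than their labels state, and the part of age was not tested. The muscles were digested with collagenase in the warm before RNA was taken. The controls are described as littermates in one place and as C57BL/6 GFP mice in another. All WT arrays shared slide 6 and scan day 3, which held no other group, so genotype and batch cannot be told apart. The other 2 groups were spread over slides 1 to 5 and scan days 1 and 2. Values are log2 signals of the scanner minus the 75th percentile of the same array, so that 0 is the 75th percentile, and a probe has a value only where its spot was well above background. Between 23871 and 34012 of 55681 probes had values on a WT array, between 23183 and 37595 on a Smn1deltaSKM array and between 25887 and 30498 on a Smn1deltaSKM+AFS array. No spot of a member was saturated.

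The targeted gene was checked first. One Smn1 probe lay between 1.56 and 2.38 in 7 of the 8 WT myofibers and between -1.41 and 0.66 in the 12 Smn1deltaSKM myofibers, a difference of mouse means of -1.68 (standard error 0.369, limma, adjusted p over probes = 0.0205). In Smn1deltaSKM+AFS it differed from WT by -1.61 (standard error 0.403, adjusted p = 0.0499). The second Smn1 probe differed between Smn1deltaSKM and WT by 0.19 (adjusted p = 0.717). It was the brighter probe, the one kept for the gene, so Smn1 itself was not called in the fit by gene. Myofiber 4 of WT mouse 2 went against its label on the first probe, at 0.63. Over the 10142 genes with values on every array, its mean correlation with its own group was 0.899, against 0.931 to 0.952 for the other WT myofibers, and it was closest to Smn1deltaSKM+AFS mouse 2 (0.907). Its array also had values for 34012 probes, against 23871 to 27329 on the other WT arrays. Myofiber 1 of Smn1deltaSKM+AFS mouse 1 was likewise closer to mouse 2 of its group (0.963) than to its own mouse (0.931), and lay on the slide of that mouse. Myofiber 4 of the same mouse was closest to Smn1deltaSKM mouse 2 (0.964, own mouse 0.940), and myofiber 4 of Smn1deltaSKM mouse 1 to mouse 3 (0.933, own mouse 0.909). In WT, myofiber 4 of mouse 1 and myofibers 1 to 3 of mouse 2 were also closest to the other WT mouse. Myofiber 4 of WT mouse 2 and myofiber 1 of Smn1deltaSKM+AFS mouse 1 are kept in the values below, and the group comparisons, spreads, correlations and marker sums were also computed without them. Of 10 myofiber markers such as Acta1, Ckm and Myh4, 9 were tested and only Myh2, the message of fast type 2A fibers, had no value on any WT array. Ckm, muscle creatine kinase, was lower in Smn1deltaSKM than in WT (-1.76, limma, adjusted p = 0.0219). Myh1, the myosin of type 2X fibers, was higher (2.20, adjusted p = 0.0229). At an adjusted p under 0.05, 1 of the 9 was lower and 1 higher, a share near the 21.6% of all genes. Of the 9, 8 had a lower mean in Smn1deltaSKM and only Myh1 a higher one. The part of fiber type in the clock values was not tested.

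Promoters of the members were read to show where the clock's own elements lie. RefSeq (GRCm38.p6) gave the stretch of 250 bases before the start for 9 of the 10 members, in 13 promoters. Capitals mark an E-box (CACGTG), an E-box-like element (AACGTG or CACGTT) or a D-box (TTATGTAA, TTACATAA or TTACGTAA), the element bound by DBP, each searched on both strands. Arntl and Dbp are shown because the report turns on them, and the other 4 because they hold such an element.
Per1, chr11:69098699-69098948, plus strand: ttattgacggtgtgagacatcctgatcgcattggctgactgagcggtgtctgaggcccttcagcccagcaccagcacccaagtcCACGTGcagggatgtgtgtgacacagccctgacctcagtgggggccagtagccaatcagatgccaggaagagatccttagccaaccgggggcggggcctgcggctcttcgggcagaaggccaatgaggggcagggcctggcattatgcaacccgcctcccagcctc
Cry2, chr2:92434070-92434319, minus strand: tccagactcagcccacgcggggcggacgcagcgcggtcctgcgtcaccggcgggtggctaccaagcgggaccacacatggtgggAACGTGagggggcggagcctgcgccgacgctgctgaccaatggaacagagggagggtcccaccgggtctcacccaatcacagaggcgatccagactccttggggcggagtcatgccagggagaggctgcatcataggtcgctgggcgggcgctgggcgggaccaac
Nr1d1, chr11:98775378-98775627, minus strand: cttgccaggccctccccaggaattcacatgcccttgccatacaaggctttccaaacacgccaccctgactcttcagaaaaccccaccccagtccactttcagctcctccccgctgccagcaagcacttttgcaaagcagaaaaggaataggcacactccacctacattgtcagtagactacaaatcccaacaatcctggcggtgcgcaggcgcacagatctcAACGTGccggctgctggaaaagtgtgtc
Per3, chr4:151044666-151044915, minus strand: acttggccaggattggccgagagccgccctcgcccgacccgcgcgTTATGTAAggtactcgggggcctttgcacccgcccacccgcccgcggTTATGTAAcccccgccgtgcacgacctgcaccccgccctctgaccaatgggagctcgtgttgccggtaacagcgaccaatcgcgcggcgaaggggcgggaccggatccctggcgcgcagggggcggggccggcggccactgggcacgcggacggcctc
Dbp, chr7:45704997-45705246, plus strand: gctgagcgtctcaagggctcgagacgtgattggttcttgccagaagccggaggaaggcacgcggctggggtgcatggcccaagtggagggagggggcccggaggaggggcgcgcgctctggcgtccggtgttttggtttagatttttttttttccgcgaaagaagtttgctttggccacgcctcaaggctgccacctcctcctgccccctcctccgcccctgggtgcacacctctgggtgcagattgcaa
Arntl, chr7:113207215-113207464, plus strand: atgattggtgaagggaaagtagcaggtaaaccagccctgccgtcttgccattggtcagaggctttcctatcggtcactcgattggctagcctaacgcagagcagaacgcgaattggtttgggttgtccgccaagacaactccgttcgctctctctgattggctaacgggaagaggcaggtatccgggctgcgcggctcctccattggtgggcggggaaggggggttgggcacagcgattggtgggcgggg
The E-box of Per1 began 166 bases before the start, the E-box-like element of Cry2 also 166 bases before it and that of Nr1d1 28 bases before it. Per3 held 2 D-boxes, 205 and 158 bases before its start. Cry1, not printed, held an E-box-like element and an E-box, 79 and 60 bases before its start. No ROR element (TAGGTCA or TGGGTCA), through which NR1D and ROR proteins act, and no CRE (TGACGTCA) was found in the windows of the members. Among 32851 mouse promoters of this length, 6.02% held the E-box, 3.85% the E-box-like element, 0.931% the D-box, 5.38% the ROR element and 1.55% the CRE. These matches are a description of the letters in 1 window, and no letters of the listed kind stood in the windows of Dbp, Arntl, Clock or Nr1d2.

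Of the 10 members, 6 were bright enough to compare. Arntl, Per1, Cry2, Nr1d1, Nr1d2 and Dbp had values on all 27 arrays with the brightest of their probes, whereas Clock, Per2, Per3 and Cry1 had values on fewer than 75% of the arrays and could not enter the test. Cry1, a repressor of the loop, was not well above background on any array. Clock had values on 3 of 8 WT, 6 of 12 Smn1deltaSKM and 2 of 7 Smn1deltaSKM+AFS arrays. Per3 had values on 1, 5 and 2 arrays of these groups. Per2, a repressor with a strong daily rhythm, had a value on 1 of 8 WT arrays, at -2.49, but on 7 of 12 Smn1deltaSKM and 5 of 7 Smn1deltaSKM+AFS arrays. The values of Per2 in Smn1deltaSKM all came from mice 2 and 3, and mouse 1 had none.

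**Figure D1:**
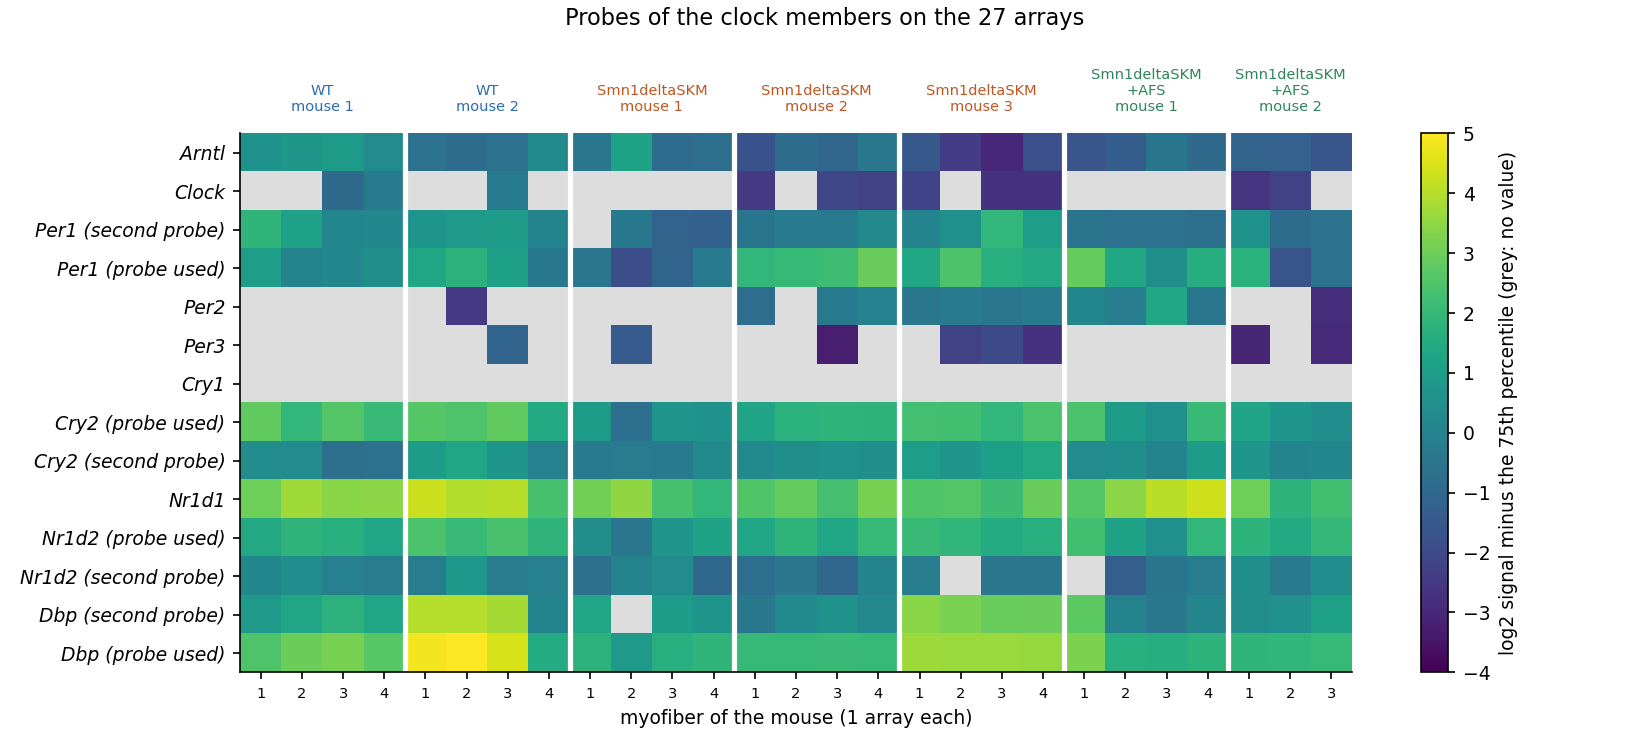
Heat map of the 14 member probes (vertical) in the 27 myofibers (horizontal, in order of group and mouse). Colour gives the log2 signal minus the 75th percentile of the array and grey marks no value. Cry1 is grey throughout, and Per2 is grey in 7 of 8 WT myofibers.

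The probes of the tested members lay, in mm9 as the array gives it, at chr7:120457261-120457320 for Arntl, chr11:68923364-68923423 for Per1, chr2:92243807-92243866 for Cry2, chr11:98630526-98631028 for Nr1d1, chr14:19036568-19036627 for Nr1d2 and chr7:52965461-52965520 for Dbp. The amplification copies both strands, and Nr1d1 overlaps Thra on the opposite strand, so signal of this pair may not be separable. Per1, Cry2, Nr1d2 and Dbp each had a second, dimmer probe.

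The first question was whether loss of Smn1 in muscle went with altered clock genes. With mice as replicates, 0 of the 6 tested members passed an adjusted p under 0.05 between Smn1deltaSKM and WT in limma, where 21.6% of all 17059 genes tested did. None had an unadjusted p under 0.05 either. Arntl, Cry2, Nr1d1, Nr1d2 and Dbp had lower means in Smn1deltaSKM and Per1 a higher one, and the median difference of the 6 was -0.89, against -0.13 for all genes. The number of mice, 3 against 2, limits the precision, and the standard errors were between 0.374 and 0.907.

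Arntl, the activator of the loop, ran from -0.80 to 0.89 in the WT myofibers, with a median of 0.30. In Smn1deltaSKM it ran from -2.95 to 1.22 with a median of -0.94, and in Smn1deltaSKM+AFS from -1.62 to -0.52 with a median of -1.17. The ranges of WT and Smn1deltaSKM overlapped, and the highest value of all came from a Smn1deltaSKM myofiber. Mouse means were 0.10 ± 0.77 in WT (SD, n = 2) and -1.13 ± 0.98 in Smn1deltaSKM (SD, n = 3), a difference of -1.22 (standard error 0.559, limma, adjusted p = 0.142). Without Smn1deltaSKM mouse 1, whose myofiber 2 gave the highest value, the difference was -1.68 and passed the test (adjusted p = 0.0227), as 43.2% of all genes did in that fit.

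Clock, the partner of ARNTL, was dim. Its measured signal, kept whether or not it was above background, differed by -1.29 (standard error 0.398, limma, adjusted p = 0.0588) between Smn1deltaSKM and WT. As only 11 of 27 arrays had a value, this is a comparison of signals close to background.

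Among the repressors, Cry2 lay between 1.51 and 2.82 in WT, with a median of 2.57. The Smn1deltaSKM myofibers lay between -0.72 and 2.44 with a median of 1.77, and the Smn1deltaSKM+AFS myofibers between 0.40 and 2.46 with a median of 0.92. Both WT mice were at 2.37, above all 3 Smn1deltaSKM mice, which were at 0.37, 1.66 and 2.25. The difference was -0.94 (standard error 0.518, limma, adjusted p = 0.211). The second Cry2 probe, at chr2:92251417-92251476, which carries another transcript accession, differed by 0.16 (standard error 0.415, adjusted p over probes = 0.803), and its sign was opposite to that of the first.

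Per1, a repressor that also answers to light, hormones and stress, was the most variable of the 6 tested members between mice. It ran from -0.36 to 1.80 in WT with a median of 0.74, from -1.83 to 2.94 in Smn1deltaSKM with a median of 1.52, and from -1.67 to 2.88 in Smn1deltaSKM+AFS with a median of 1.39. Smn1deltaSKM mouse 1 had a mean of -0.93, below both WT mice (0.42 and 0.95), while mice 2 and 3 had means of 2.29 and 1.72, above them. The difference was 0.34 (standard error 0.907, limma, adjusted p = 0.805). The second Per1 probe gave -0.82 (standard error 0.476, adjusted p over probes = 0.238), so the 2 probes did not share a direction.

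Per2 and Per3 could be described only by their signal near background. The measured signal of Per2 lay between -5.80 and -2.17 in WT, with a median of -4.86, between -3.69 and -0.03 in Smn1deltaSKM and between -4.17 and 1.36 in Smn1deltaSKM+AFS. The difference between Smn1deltaSKM and WT was 2.99 (standard error 0.945, limma, adjusted p = 0.0636), which did not pass the test. In Smn1deltaSKM mouse 3 all 4 myofibers had a value, from -0.46 to -0.27, while no myofiber of mouse 1 had one. Measured signals of Per3 differed by -0.59 (standard error 0.766, adjusted p = 0.602) and those of Cry1 by -0.51 (standard error 0.385, adjusted p = 0.363).

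Nr1d1, which encodes REV-ERB alpha, lay between 2.37 and 4.28 in WT, with a median of 3.57. In Smn1deltaSKM it lay between 1.97 and 3.51 with a median of 2.58, and in Smn1deltaSKM+AFS between 1.83 and 4.33 with a median of 3.03. The 3 Smn1deltaSKM mice were alike, with means of 2.74, 2.73 and 2.56, below the WT mice at 3.39 and 3.66. The difference was -0.85 (standard error 0.374, limma, adjusted p = 0.132), the lowest adjusted p of the 6 members. Without myofiber 4 of WT mouse 2, which lay at 2.37, it was -1.06 (adjusted p = 0.0814).

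Nr1d2, which encodes REV-ERB beta, ran from 1.34 to 2.47 in WT with a median of 1.86, from -0.45 to 2.08 in Smn1deltaSKM with a median of 1.44, and from 0.51 to 2.27 in Smn1deltaSKM+AFS with a median of 1.83. The low end of Smn1deltaSKM came from mouse 1, whose mean was 0.47, while mice 2 and 3 were at 1.63 and 1.80. The difference was -0.60 (standard error 0.432, limma, adjusted p = 0.329). Its second probe gave -0.50 (standard error 0.317, adjusted p over probes = 0.276).

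Dbp, a PAR bZIP activator and the member furthest down the loop, lay between 1.55 and 4.98 in WT with a median of 3.07. In Smn1deltaSKM it lay between 0.86 and 3.69 with a median of 2.02, and in Smn1deltaSKM+AFS between 1.60 and 3.22 with a median of 1.90. The ranges overlapped, since Smn1deltaSKM mouse 3 lay above every myofiber of WT mouse 1. Mouse means were 3.40 ± 0.78 in WT (SD, n = 2) and 2.41 ± 1.09 in Smn1deltaSKM (SD, n = 3), and the difference was -0.99 (standard error 0.599, limma, adjusted p = 0.253). Without myofiber 4 of WT mouse 2 it was -1.39 (standard error 0.691, adjusted p = 0.162). The second Dbp probe gave -0.71 (standard error 0.806, adjusted p over probes = 0.544).

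**Figure D2:**
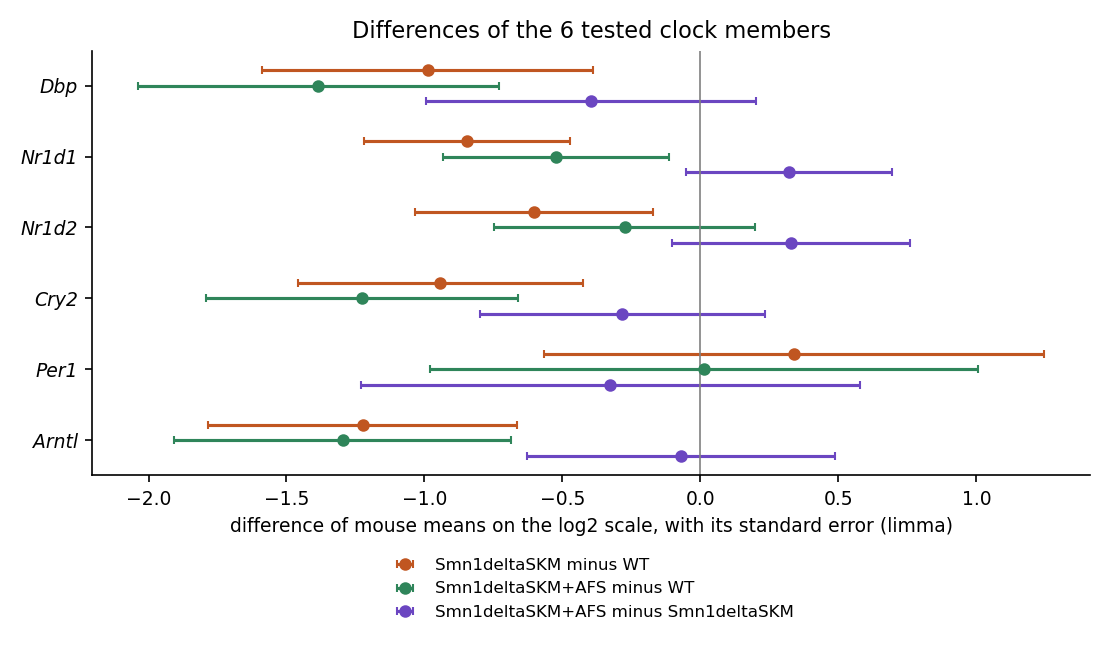
Differences between groups for the 6 tested members (vertical) on the log2 scale (horizontal), as limma's estimate from mouse means with its standard error, for each pair of groups. Against WT, both other groups lay below 0 for every member except Per1, and no difference passed the test.

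The second question was whether the clock genes differed after AFS cells. Between Smn1deltaSKM+AFS and Smn1deltaSKM 0 of 6 members passed, as did 0% of 16648 genes in limma (532 genes had an unadjusted p under 0.05). Nr1d1 differed by 0.32 (standard error 0.373), Nr1d2 by 0.33 (standard error 0.431), Dbp by -0.40 (standard error 0.598), Cry2 by -0.28 (standard error 0.516), Per1 by -0.33 (standard error 0.905) and Arntl by -0.07 (standard error 0.558). All had an adjusted p of 1.00, and each standard error exceeded the difference. Nr1d1 was unequal in the 2 treated mice, with myofibers at 2.64, 3.43, 4.08 and 4.33 in mouse 1 and at 3.03, 1.83 and 2.28 in mouse 2. Within scan day 2, which held both groups, Nr1d1 differed by 0.51, Nr1d2 by 0.41, Dbp by -0.29, Per1 by -0.20, Cry2 by 0.02 and Arntl by 0.02. On scan day 1, with 1 mouse of each group and so no test, Per1 differed by 2.07, Arntl by -0.89, Nr1d1 by 0.76, Nr1d2 by 0.61, Cry2 by 0.43 and Dbp by 0.18. Arntl, Per1, Cry2 and Dbp thus did not keep 1 direction across the pooled and the within-day values.

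Smn1deltaSKM+AFS was also set against WT, which shares its WT mice with the first comparison. Here 0 of 6 members passed, against 7.77% of all 16648 genes. Dbp differed by -1.38 (standard error 0.655, limma, adjusted p = 0.198), Arntl by -1.30 (standard error 0.611, adjusted p = 0.197) and Cry2 by -1.23 (standard error 0.566, adjusted p = 0.189). Nr1d1 differed by -0.52, Nr1d2 by -0.27 and Per1 by 0.01, with adjusted p of 0.423, 0.729 and 0.995. Per1 turned to -0.42 without the pair of myofibers that stood apart, while the direction of the other 5 was unchanged by leaving them out.

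The clearest feature of the members was a difference between mice of the same group, described here without a test. In Smn1deltaSKM mouse 2 the 4 myofibers had Dbp levels of 2.02, 2.03, 2.08 and 2.02, and in mouse 3 levels of 3.69, 3.64, 3.64 and 3.58. Both mice lay on slide 4, and the difference of 1.60 was 44.6 times the SD among myofibers of 1 mouse (0.0359). By that ratio Dbp was first of the 15208 genes with values in these 8 myofibers, and by size alone it was 65th. The second Dbp probe followed in direction, at -0.40, 0.30, 0.62 and 0.22 in mouse 2 and at 3.40, 3.17, 2.92 and 2.94 in mouse 3. Its SD among myofibers was larger, 0.426 in mouse 2 and 0.227 in mouse 3. The ranks are those of the brighter probe only. Arntl ran the other way, at -1.74, -0.82, -1.02 and -0.39 in mouse 2 and at -1.49, -2.42, -2.95 and -1.80 in mouse 3, a difference of -1.18, the 194th in size. Its ranges in the 2 mice overlapped by 1 myofiber. Myofibers of the 2 mice did not overlap for Dbp and Cry2, which are 2 of the 6 members, where 12.1% of all genes did not overlap. Cry2 was higher in mouse 3 by 0.60, while Nr1d1 (-0.17), Nr1d2 (0.17) and Per1 (-0.57) had overlapping ranges.

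The 2 WT mice, on 1 slide, also differed in Dbp and Arntl. Dbp was at 2.54, 2.99, 3.16 and 2.68 in WT mouse 1 and at 4.84, 4.98, 4.44 and 1.55 in WT mouse 2, the last being the myofiber that stood apart. Arntl was at 0.60, 0.75, 0.89 and 0.33 in mouse 1 and at -0.60, -0.80, -0.64 and 0.27 in mouse 2. Mouse 2 thus had the higher mean of Dbp (by 1.11) and the lower mean of Arntl (by -1.08). With all myofibers, 2 of 6 members, Arntl and Nr1d2, did not overlap between these mice, against 4.62% of 12374 genes. Without myofiber 4, which was left out after its values had been seen, the differences were 1.91 for Dbp and -1.32 for Arntl, with 0.97 for Per1, 0.70 for Nr1d1, 0.74 for Nr1d2 and 0.28 for Cry2, and 5 of 6 members did not overlap, against 11% of 12459 genes. In both of these pairs, then, the mouse with more Dbp message had less Arntl message.

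**Figure D3:**
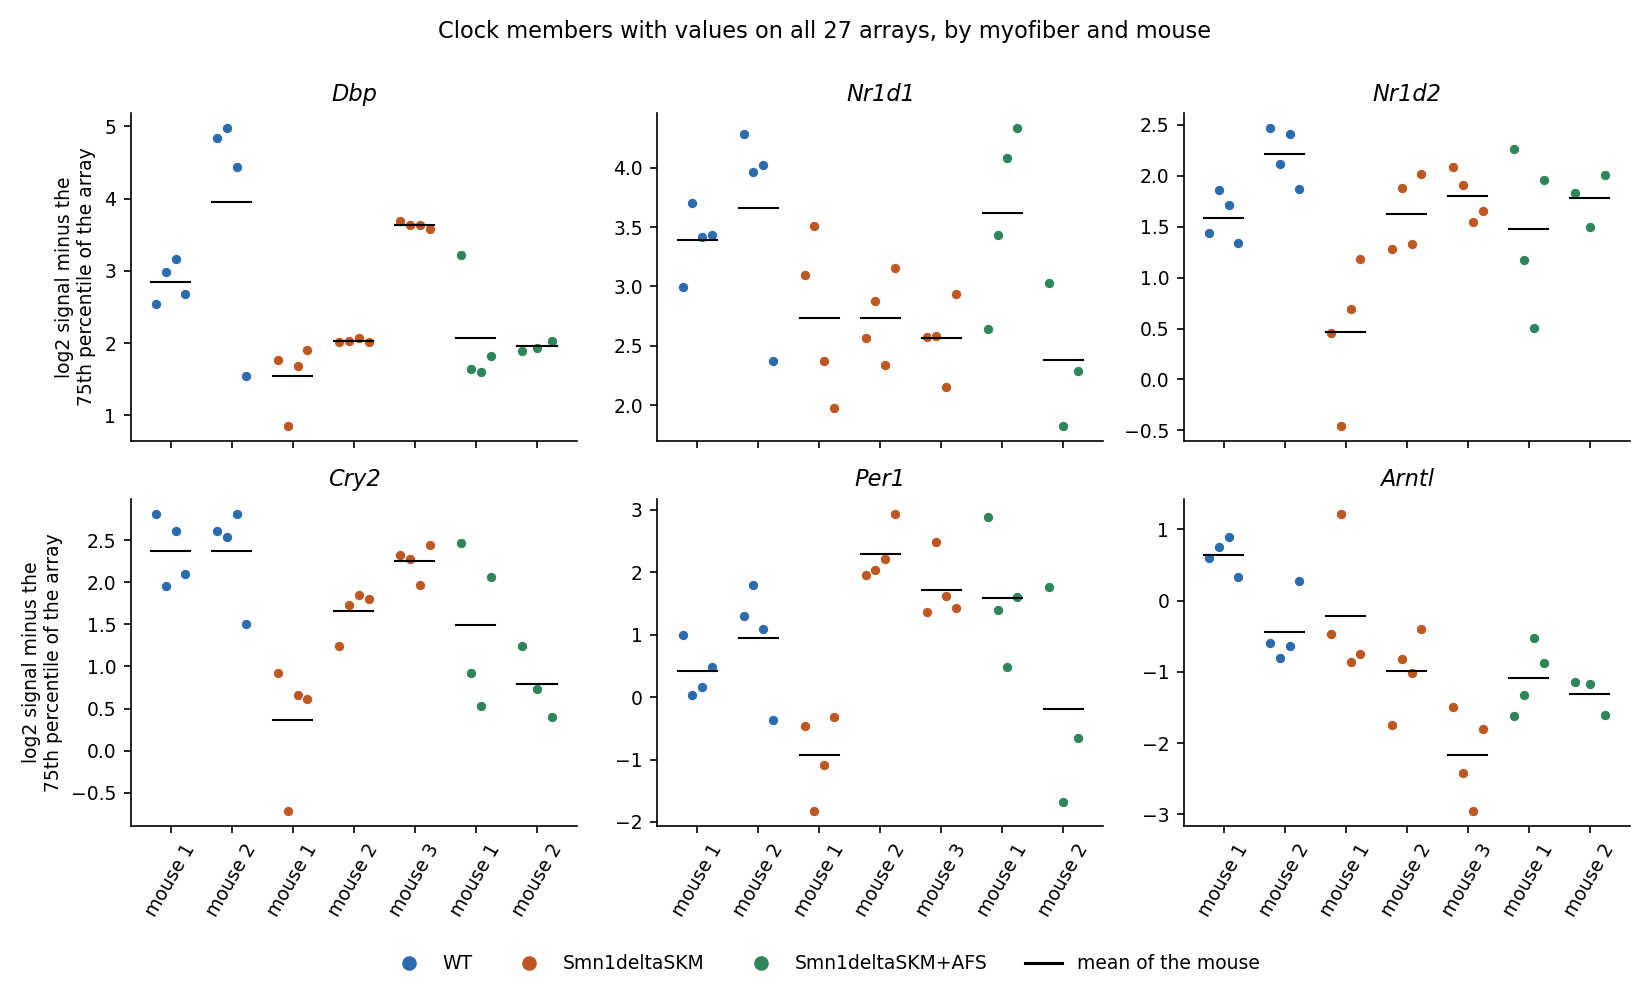
Levels of the 6 tested members in each myofiber (points), by mouse (horizontal) and group (colour), as log2 signal minus the 75th percentile of the array (vertical, own range in each panel), with the mean of the mouse as a line. Dbp in Smn1deltaSKM mice 2 and 3 sits near 2.0 and 3.6 with little spread, and 1 myofiber of WT mouse 2 and 1 of Smn1deltaSKM+AFS mouse 1 lie far from the others of their mouse.

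Smn1deltaSKM mouse 1 was apart from both. Its Dbp levels were 1.77, 0.86, 1.68 and 1.90 and its Arntl levels -0.47, 1.22, -0.86 and -0.75. Myofiber 2 of this mouse had the lowest Dbp, Cry2 (-0.72), Nr1d2 (-0.45) and Per1 (-1.83) of all 27 myofibers and the highest Arntl. Nr1d1 was not low in it, at 3.51, the highest value of the Smn1deltaSKM group. Its array had 23183 probes with values, the fewest of all, and myofibers 1 to 3 of the mouse were scanned on another day than mice 2 and 3. The part of batch in these levels was not tested. Among the treated mice, Dbp was at 3.22, 1.63, 1.60 and 1.82 in mouse 1 and at 1.90, 1.94 and 2.03 in mouse 2. Arntl was at -1.62, -1.33, -0.52 and -0.88 in mouse 1 and at -1.14, -1.17 and -1.61 in mouse 2. Here mouse 1 had the higher mean of both Dbp (2.07 against 1.95) and Arntl (-1.09 against -1.31), unlike the pairs above, and the ranges of both genes overlapped.

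**Figure D4:**
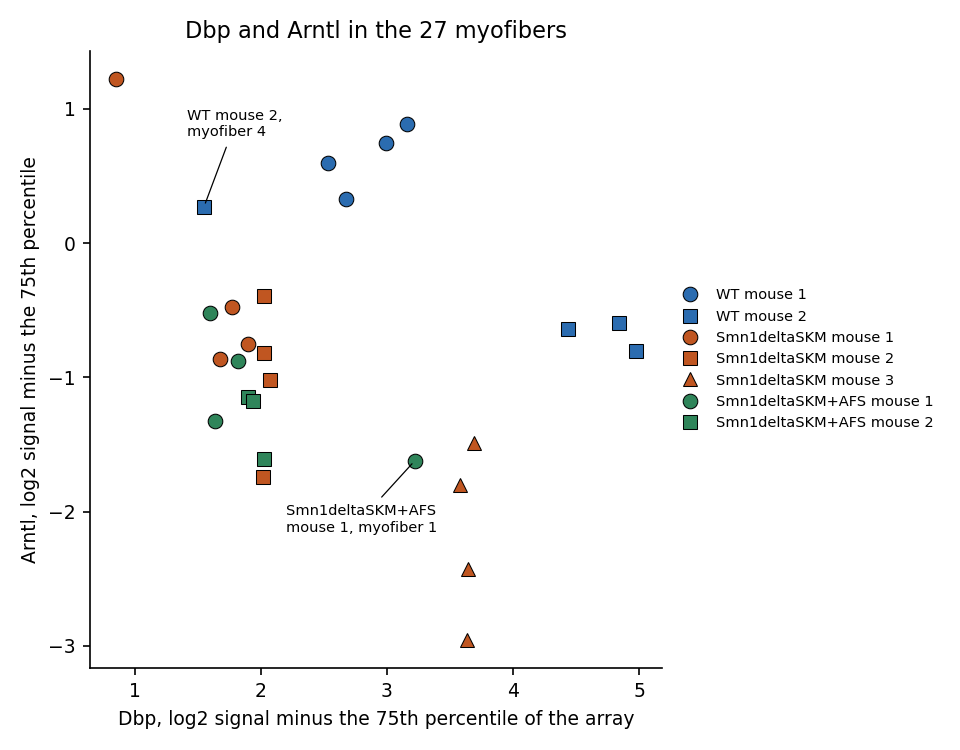
Arntl (vertical) against Dbp (horizontal) in the 27 myofibers, both as log2 signal minus the 75th percentile of the array, with groups by colour and mice by symbol. Along Dbp, myofibers of a mouse lie together, with exceptions. These are the labelled myofibers of WT mouse 2 at 1.55 and Smn1deltaSKM+AFS mouse 1 at 3.22, and 1 of Smn1deltaSKM mouse 1 at 0.86. Along Arntl they lie less close, such as from -1.74 to -0.39 in Smn1deltaSKM mouse 2 and from -2.95 to -1.49 in mouse 3.

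For 5 of the 6 tested members, mice differed more than myofibers of a mouse when all myofibers were kept, Nr1d1 being the exception. In Smn1deltaSKM and Smn1deltaSKM+AFS the mice did not all share slides and scan days, and the part of batch in these spreads was not tested. The ratio of the SD of mouse means to the SD within mice was 1.59 for Per1, 1.37 for Arntl, 1.28 for Cry2, 1.20 for Nr1d2, 1.19 for Dbp and 0.762 for Nr1d1, where the median of 10142 genes with values on all arrays was 0.785. The SD within mice was 0.869 for Per1 and 0.727 for Dbp, higher than in 96.0% and 91.5% of these genes. Without the pair of myofibers that stood apart, which were picked after their Dbp values had been seen, the SD within mice of Dbp was 0.249, higher than in 10.2% of genes, and its ratio 4.14, while the ratio of Nr1d1 was 1.36. The high spread of Dbp within mice thus rested on these 2 arrays. After each mouse mean was subtracted, Arntl and Dbp had a Pearson r of -0.51 over the 27 myofibers, Cry2 and Nr1d2 an r of 0.73, Per1 and Cry2 an r of 0.70 and Cry2 and Dbp an r of 0.64. Nr1d1 was less tied to the rest, from -0.14 with Nr1d2 to 0.35 with Arntl. Without the same 2 myofibers r was -0.48 for Arntl and Dbp, 0.66 for Cry2 and Nr1d2, 0.55 for Per1 and Cry2, 0.46 for Cry2 and Dbp and 0.65 for Arntl and Nr1d1, over 25 myofibers. Points of these correlations share mice, slides and the scaling of an array, and they are given as a description.

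Genes most like each member over the 27 myofibers, after mouse means were subtracted, were no other members. They were Uspl1 for Arntl (r = 0.764), Atf4 for Per1 (0.856), Hnrpdl for Cry2 (0.902), Pim1 for Nr1d1 (0.764), Gm14399 for Nr1d2 (0.906) and Itgb1bp3 for Dbp (0.912). Over the 25 myofibers left without the pair that stood apart, Uspl1 and Gm14399 came first again, while Mnt came first for Per1 (0.826), Hspa5 for Cry2 (0.856) and Smarca4 for Dbp (0.879), and Pim1 no longer came first for Nr1d1.

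Other genes of the clock pathway did pass the test between Smn1deltaSKM and WT. Of 40 listed genes 35 were tested, 6 fell and 1 rose at an adjusted p under 0.05 in limma, with a median difference of -0.55 against -0.13 over all genes. This is 7 of 35, close to the 21.6% of all genes. Among the other clock components, 1 of 9 tested genes fell. Hlf, a PAR bZIP factor like DBP, lay at 1.15 in WT and -0.86 in Smn1deltaSKM, a difference of -2.01 (standard error 0.332, adjusted p = 0.0108). Tef, the third PAR bZIP factor (-0.84, adjusted p = 0.0633), and Nfil3, a repressor at D-boxes (0.68, adjusted p = 0.437), did not pass. Without WT mouse 2 Nfil3 changed sign.

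Among 17 tested modifiers of clock proteins, 5 fell and 1 rose, where 21.6% of all genes were called. Usp2, a deubiquitinase with a daily rhythm, differed by -2.07 (standard error 0.583, limma, adjusted p = 0.0406). Csnk2b, a subunit of casein kinase 2, differed by -1.54 (standard error 0.241, adjusted p = 0.00969), Ppp1cb, a phosphatase subunit, by -1.47 (0.0253), Huwe1, a ubiquitin ligase, by -1.46 (0.0233) and Gsk3b, a kinase, by -1.38 (0.0288), with adjusted p in parentheses. Sirt1, a deacetylase, was higher by 1.28 (adjusted p = 0.0203). These proteins have many substrates outside the clock. Btrc (3.18, adjusted p = 0.0787) and Hdac3 (-1.67, adjusted p = 0.125) did not pass, and none of 9 tested rhythmic output genes did, the largest differences being those of Coq10b (1.98, adjusted p = 0.0586) and Myod1 (1.46, adjusted p = 0.205). Against WT, Smn1deltaSKM+AFS had 2 of the 35 called, where 7.77% of all genes were called. These were Hlf at -2.09 (limma, adjusted p = 0.0222) and Csnk2b at -1.23 (adjusted p = 0.0354). Against Smn1deltaSKM, Smn1deltaSKM+AFS had 0 of the 35 called, and 0% of all genes. Without WT mouse 1 or WT mouse 2, 0 of the 35 genes and 0 of all genes were called between Smn1deltaSKM and WT. Without Smn1deltaSKM mouse 1 it was 12, with 43.2% of all genes called, and without Smn1deltaSKM mouse 2 it was 3, with 7.88%.

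**Figure D5:**
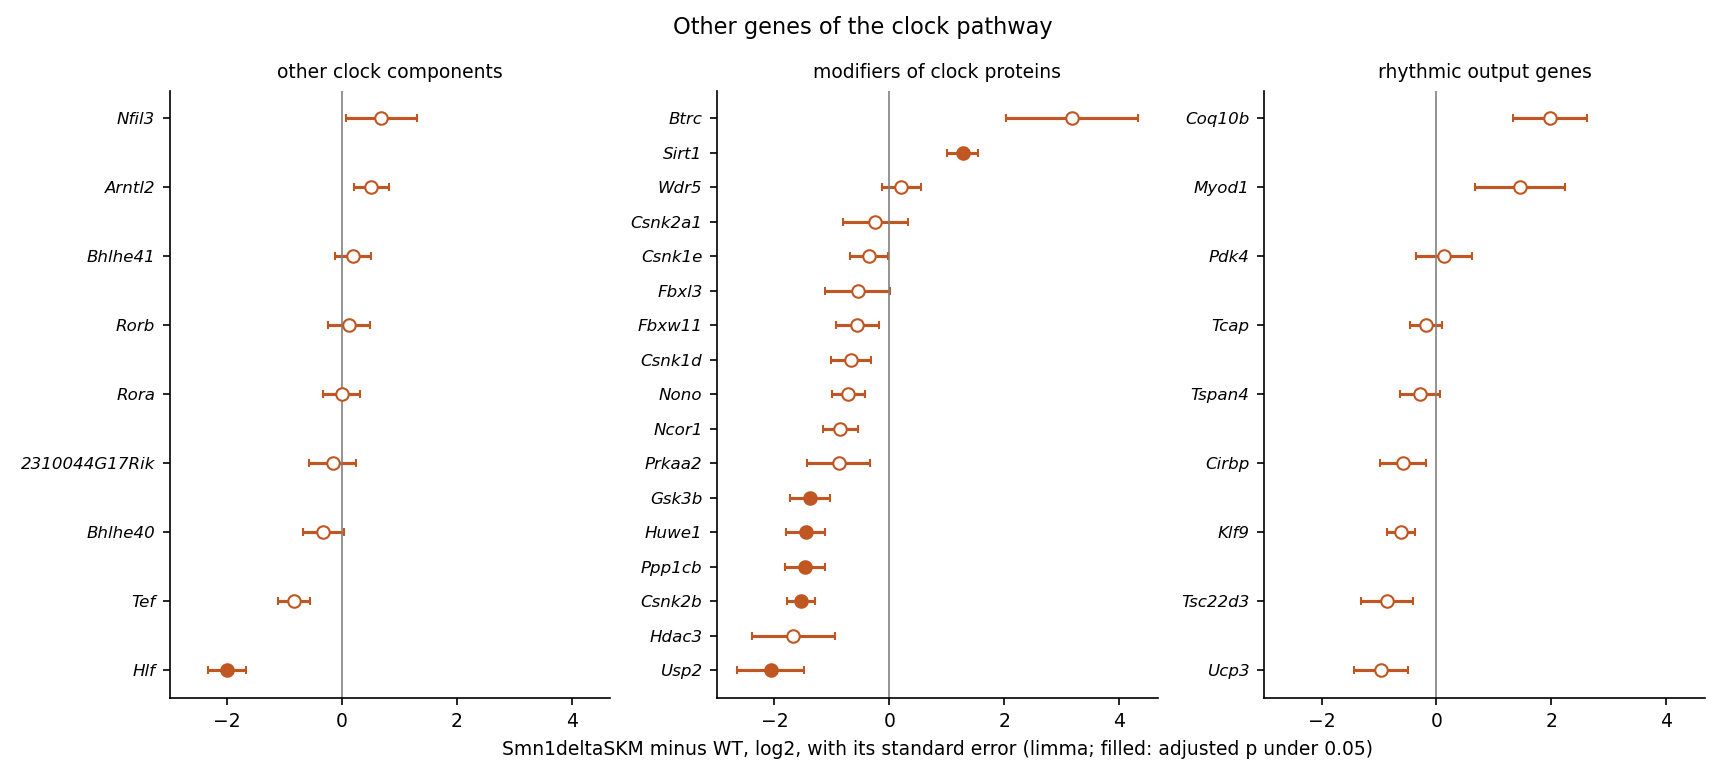
Difference between Smn1deltaSKM and WT (horizontal, log2) of the 35 tested genes of the clock pathway outside the members (vertical), in 3 panels, as limma's estimate with its standard error. Filled points passed an adjusted p under 0.05, which were Hlf, Usp2, Csnk2b, Ppp1cb, Huwe1 and Gsk3b below 0 and Sirt1 above it.

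Targets of glucocorticoid and CREB signals, which can induce Per1 from outside the loop, were also counted. All 12 were tested, 2 fell and 2 rose, where 21.6% of all genes were called. Fkbp5 (-2.02, limma, adjusted p = 0.0147) and Ddit4 (-1.92, adjusted p = 0.0211), both induced by glucocorticoids, were lower in Smn1deltaSKM than in WT. Egr1, an immediate early gene, was higher by 2.39 (adjusted p = 0.0196) and Crem, a gene of the CREB family, by 1.51 (adjusted p = 0.0425). Of 23 markers of other cell types 9 were tested and 2 called, a share near the 21.6% of all genes. Ptprc (1.33, adjusted p = 0.0219) and Cd68 (2.99, adjusted p = 0.0376), markers of leukocytes and macrophages, were higher in Smn1deltaSKM, while Csf1r, the third tested marker of these cells, differed by -0.50 (adjusted p = 0.165). The summed signal of the 5 leukocyte markers was between 4.45 and 5.15 in WT, between 4.26 and 5.09 in Smn1deltaSKM and between 4.16 and 5.24 in Smn1deltaSKM+AFS, and that of the 4 fibroblast markers between -1.94 and 5.91, between -1.01 and 4.31 and between -1.45 and 4.03. Endothelial markers summed to between 2.34 and 4.16, between 3.07 and 4.10 and between 3.60 and 4.18 in the same order (from 2.93 in WT without myofiber 4 of mouse 2), and smooth muscle markers to between -1.16 and 0.38, between -0.31 and 2.17 and between -0.28 and 2.81. Of the fibroblast markers, Dcn had a value on 1 of 8 WT and 12 of 12 Smn1deltaSKM arrays, Col1a1 on 2 and 9, Col3a1 on 6 and 11, and Pdgfra on 0 and 1. In such samples fewer cells of a type and less RNA per cell cannot be told apart. The part of other cells in the clock values was not tested.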

How the data were processed

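Single myofibers of 7 mice were each hybridized on a 1-colour Agilent mouse array after whole transcriptome amplification. The intensity values were deposited by the authors as scanner output of Feature Extraction 10.7.3.1, background-subtracted and detrended within the array and not scaled between arrays, with flags for spots not found, not above background, uneven or saturated and probe positions in mm9. The authors' table of the series holds intensities on a linear scale and served as an alternative. Within an array it ranked probes almost as the scanner signal did (Spearman at least 0.9998), which does not show how arrays were scaled to each other. The number of probes with values was not the same, such as 25026 against 23871 on the array of WT mouse 1, myofiber 1.

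Here log2 signals were centred on the 75th percentile of each array, and spots not found, not well above background or uneven were left out. A probe was used where 75% or more of the arrays measured it. This share was taken over the 20 WT and Smn1deltaSKM arrays for their comparison, and over all 27 arrays for comparisons with Smn1deltaSKM+AFS. Values of a probe were averaged per mouse, and the brightest probe was kept per gene. All 7 mice were fitted with limma 3.58.1 in R 4.3.3 (lmFit, eBayes), with Benjamini-Hochberg adjustment over all genes and a threshold of 0.05. The fit was tested on simulated data, with noise independent between mice and planted changes larger than the differences of the tested members. That check does not show how well smaller changes are found. The study tested myofibers with SAM. Here mice are the replicates, with myofibers as an alternative. P-values measure the spread between mice, and the number of arrays limits the precision. Every member was named, of the other clock lists each called gene and the 2 largest uncalled differences per list, and per member the gene of highest correlation. Genes of the last 2 lists were named where called. Members and lists were chosen with earlier results of these data known. Other scalings, filters, blocks and left-out mice were tried. Mouse numbers were not taken as pairs. Some listed genes are not reported here, and 1 of them was left out of the lists and their counts.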

Additional observations from a re-analysis of the deposited data

Results flagged for a closer look

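Dbp in myofiber 1 of Smn1deltaSKM+AFS mouse 1 lay at 3.22, apart from the other 6 myofibers of the group, which lay between 1.60 and 2.03. Its gap to the nearest other myofiber was 0.737 of the whole range of the group, past Dixon's critical value for 7 samples. It was the 1 case among 12 sets of values examined, all of WT or Smn1deltaSKM+AFS, since the Smn1deltaSKM group was too large for the rule. Chance marks about 1 in 20 sets of independent values. The 7 myofibers came from 2 mice and are not independent. The second Dbp probe was also highest in this myofiber, at 2.74. The array lay on another slide than the rest of its mouse, and the part of that in the value was not tested.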

How the results depend on the processing

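The number of members called between Smn1deltaSKM and WT, 0 of 6, became 4 with myofibers as replicates (Arntl, Cry2, Nr1d1 and Dbp, with adjusted p of 0.00533, 0.0194, 0.0129 and 0.0438 in limma), a fit that treats myofibers of a mouse as independent and called 54.2% of all genes. It became 1 with the mouse as a random block (Arntl, adjusted p = 0.0402, with 35.2% of all genes called) and 0 to 1 when each mouse was left out in turn. Between Smn1deltaSKM+AFS and WT it became 3 with myofibers as replicates (Arntl, Cry2 and Dbp, with 41.7% of all genes called), 1 with only the mice of these groups (Cry2, adjusted p = 0.0411, with 19.2%) and 0 to 1 with a mouse left out (Cry2 without Smn1deltaSKM mouse 1, adjusted p = 0.0262, with 29.1%). The 7 other clock genes called, beside 21.6% of all genes, became 3 with quantile normalization and 4 of 36 tested with the authors' table. In both of these fits 16.1% of all genes were called. The count became 21 with myofibers as replicates (54.2% of all genes) and 11 with the mouse as a random block (35.2%). With a Smn1deltaSKM mouse left out it ran from 3 to 12, with 7.88% to 43.2% of all genes called.

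Mouse numbers shared by groups do not pair the mice by any label. Same-numbered WT and Smn1deltaSKM mice had deviations from their group means with correlations of 0.149 and 0.041. Those of Smn1deltaSKM and Smn1deltaSKM+AFS mice were 0.308 and 0.189. For WT and Smn1deltaSKM+AFS it was -0.064, necessarily the same in both pairs, since deviations of 2 mice from their mean mirror each other. Correlations of differently numbered mice ran from -0.325 to 0.325, a range that holds all of those above. With the number as a replicate block, 1 member was called between Smn1deltaSKM and WT (Dbp, -1.60, adjusted p = 0.0401, with 13.2% of all genes called), Per1 became -0.0078 there, and between Smn1deltaSKM+AFS and Smn1deltaSKM Per1 became 0.021, Cry2 0.13 and Dbp 0.22.

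Other changes of sign were in differences that had not passed the test. Per1 between Smn1deltaSKM and WT became -0.22 with the mean of its probes and -0.34 with slide as a random block. Between Smn1deltaSKM+AFS and Smn1deltaSKM, Arntl became 0.035 with quantile normalization, 0.0218 with the authors' table, 0.0175 without myofiber 1 of Smn1deltaSKM+AFS mouse 1 (also without both myofibers) and 0.0249 within scan day 2. Per1 became 0.70 with slide as a block and 0.47 with scan day as a term, and Cry2 became 0.32, 0.14 and, within scan day 2, 0.0207. Between Smn1deltaSKM+AFS and WT, Per1 became -0.59 with the mean of its probes, -0.21 without myofiber 4 of WT mouse 2, -0.20 without the other myofiber and -0.42 without both. The alternatives that leave out myofibers or use scan day were chosen after seeing the data.

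With each mouse left out in turn, the difference between Smn1deltaSKM and WT ran from -0.29 to 1.32 for Per1 and from -0.0706 to 1.44 for Nfil3. Between Smn1deltaSKM+AFS and Smn1deltaSKM it ran from -0.59 to 0.38 for Arntl, from -0.0852 to 0.58 for Nr1d2, from -1.30 to 0.56 for Per1, from -0.81 to 0.13 for Cry2, from -0.82 to 0.22 for Dbp and from -0.30 to 0.94 for Nr1d1. Between Smn1deltaSKM+AFS and WT it ran from -0.88 to 0.90 for Per1, from -0.59 to 0.0394 for Nr1d2 and from -1.14 to 0.0969 for Nr1d1. The causes were not tested. Scan day could not be used against WT, since no day held WT and another group. Low signal limits Clock, Per2, Per3 and Cry1.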
